A study of Mus musculus with 9 samples.

Results

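The 10 genes followed here belong to the inflammatory response of microglia, macrophages that reside in the brain: the cytokines Il1a, Il1b, Il18, Tnf and Il6, the interleukin-1 antagonist Il1rn, the prostaglandin synthase Ptgs2, the inflammasome genes Nlrp3 and Casp1, and Nfkbia, an inhibitor of NF-kB. They were given as a list of names, each was measured by 1 probe set annotated to that gene alone, and they are 10 of the 19938 genes measured on the arrays. All 10 lay above the filter on low levels and are among the 10795 genes tested. CD45+ CD11b+ cells were sorted from the brains of 9 mice aged 8.5 months, 1 array per mouse. 5XFAD, a set of human transgenes under which amyloid accumulates, was present in all 9 mice, and none had functional mouse TREM2, which microglia use to sense lipids and debris. The KO group (3 mice) expressed no human TREM2, the CV group (3 mice) expressed its common variant, and the R47H group (3 mice) expressed R47H, a variant associated with raised risk of Alzheimer's disease. Mouse 1 of every genotype was female, while mice 2 and 3 were male. The sources used here do not give the promoter that drives human TREM2 or the number of founder lines.

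Inflammatory signalling in macrophages runs in stages. Sensing of microbial or damage signals frees NF-kB from its inhibitors, and NF-kB then raises transcription of Il1a, Il1b, Tnf, Il6, Ptgs2, Nlrp3 and of its own inhibitor Nfkbia. The interleukin-1 beta and interleukin-18 proteins are made as inactive precursors, and a second signal assembles NLRP3 with an adaptor into the inflammasome, where caspase-1 cuts both. Amyloid is a known trigger of NLRP3 in microglia. Transcript levels, which the arrays measured, do not show whether the precursors were cut or released.

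None of the 10 genes passed the test between any pair of genotypes (limma, Benjamini-Hochberg adjusted p under 0.05 over 10795 genes), where 1.21% of all genes passed in CV minus KO, 0.0834% in R47H minus KO and 0.797% in R47H minus CV. At an unadjusted p under 0.05, 5 of the 10 were higher in CV than in KO (Ptgs2, Tnf, Nlrp3, Il1b and Casp1), against 13.2% of all genes in either direction. In R47H minus KO 1 of 10 reached that p (Ptgs2, higher), against 5.68% of all genes, and in R47H minus CV 3 of 10 did (Nlrp3 and Il1rn lower, Il18 higher), against 12.4%. The CV mice lay wholly above the KO mice for 4 of the 10 genes, Il1b, Tnf, Ptgs2 and Nlrp3, where groups did not overlap for 14.0% of all genes in either direction. R47H and KO mice did not overlap for 1 gene (Ptgs2), against 7.11% of all genes, and R47H and CV mice for 2 (Il1rn and Nlrp3), against 14.9%. The median difference of the 10 genes was 0.29 in CV minus KO, 0.09 in R47H minus KO and -0.16 in R47H minus CV (log2), beside medians over all tested genes of -0.016, -0.0011 and 0.010. The 10 genes were chosen with earlier results of these data known, so these shares and medians are a description and no test of the set. CV minus KO and R47H minus KO share the KO arrays, so their values are given side by side and not correlated. CV minus KO and R47H minus CV share the CV arrays with opposite sign. A mirrored difference in these comparisons is therefore not an independent finding.

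**Figure D1:**
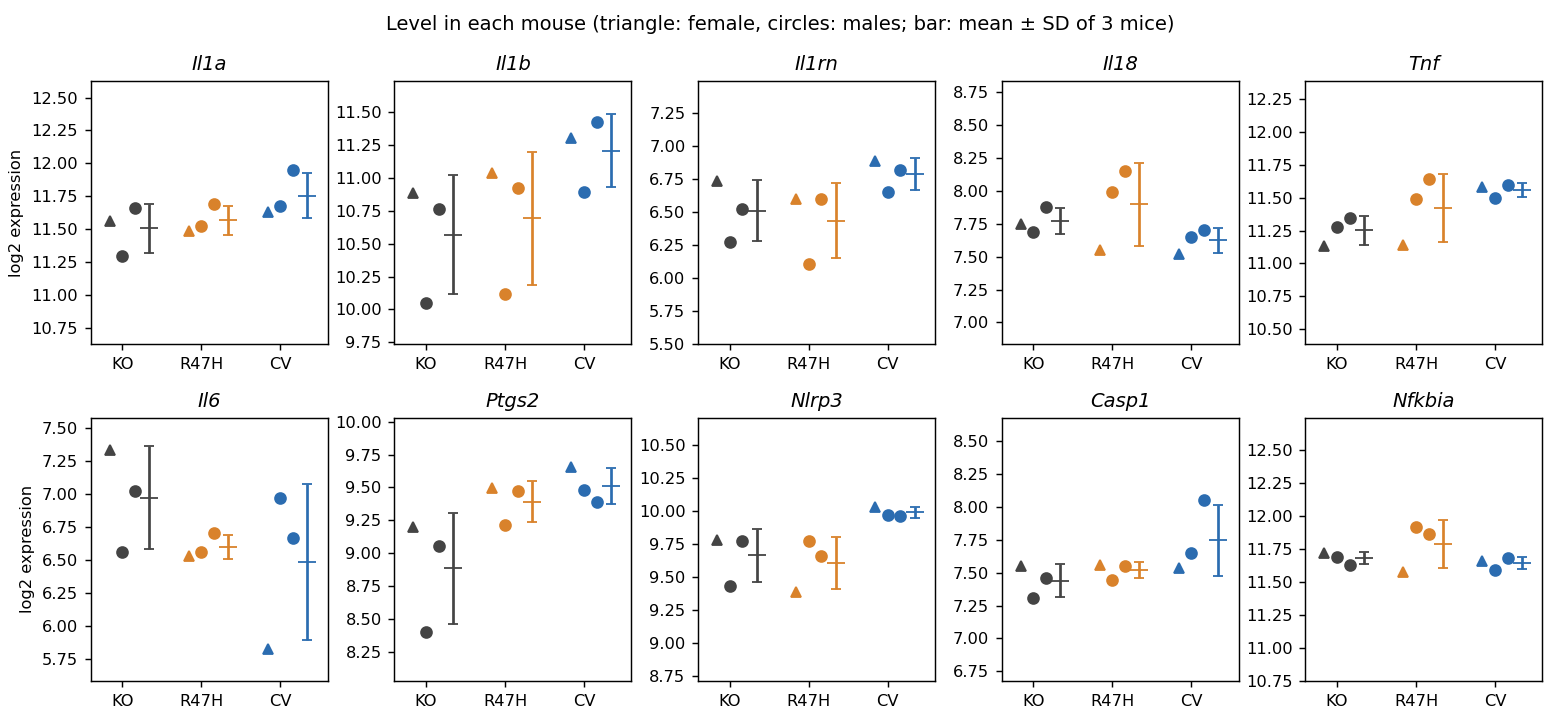
Level of each of the 10 genes in each mouse (log2 expression; every panel spans the same 2 log2 units), with the female as a triangle, males as circles and mean ± SD of 3 mice beside them. The CV mice lay above all KO mice for Il1b, Tnf, Ptgs2 and Nlrp3, and Il1b and Il1rn were lowest in mouse 2 of every genotype.

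**Figure D2:**
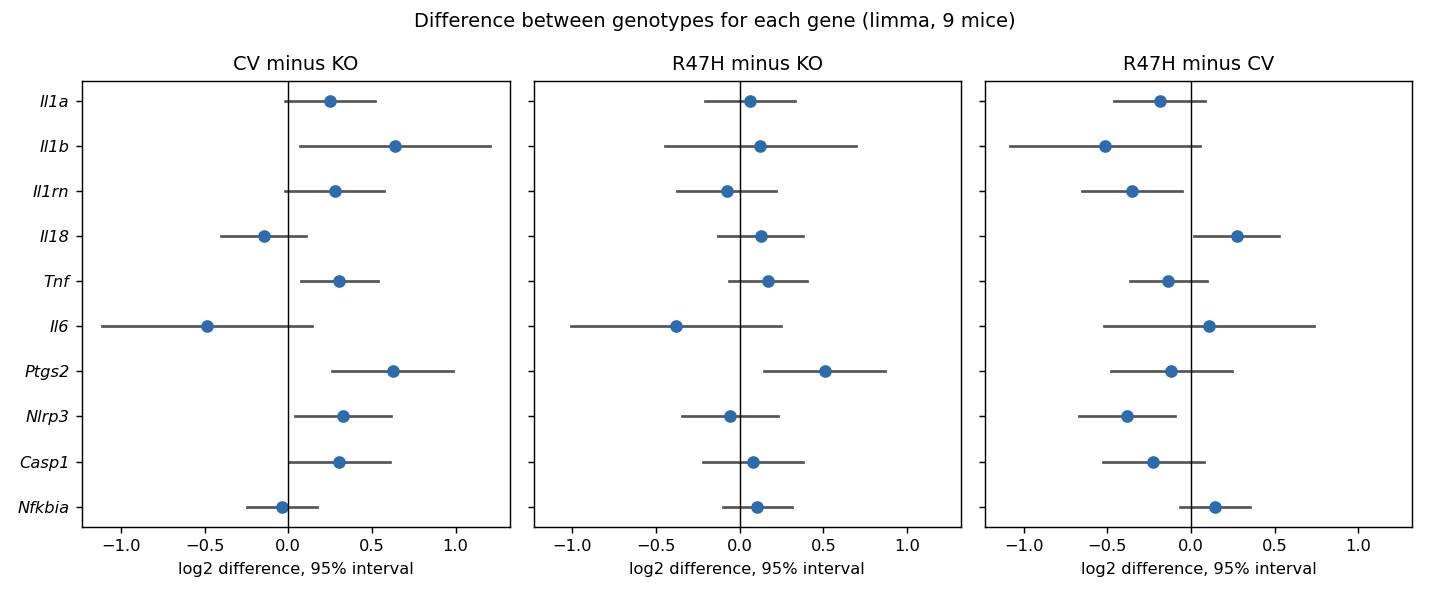
Difference between genotypes for each gene on the log2 scale (points) with its 95% interval from limma, not adjusted for the number of genes (lines). In CV minus KO the intervals of Ptgs2, Il1b, Tnf, Nlrp3 and Casp1 lay above 0, and in R47H minus KO that of Ptgs2 alone.

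Il1b, the inflammasome-processed form of interleukin-1, varied most between mice of the same genotype among the interleukin-1 genes. It lay at 10.89, 10.05 and 10.77 in KO mice 1, 2 and 3 (log2), at 11.04, 10.12 and 10.92 in R47H mice, and at 11.30, 10.89 and 11.42 in CV mice. Mouse 2, a male, was lowest in every genotype, and the lowest CV mouse stood only 0.0064 above the highest KO mouse. The difference CV minus KO was 0.64 ± 0.25 (log2, limma SE), a 1.56-fold higher level, with a 95% interval of 0.07 to 1.21 and an adjusted p of 0.318. With a block for the mouse number this difference was called (limma adjusted p = 0.0276). The labels do not pair the mice, and that model is described in the part on processing. The difference R47H minus KO was 0.12 ± 0.25 (limma adjusted p = 0.978), and R47H minus CV was -0.51 ± 0.25 (adjusted p = 0.457). Its SD about the model, 0.39, exceeded that of 98.7% of tested genes, whose median was 0.12. CV minus KO was 0.42 without KO mouse 2 (limma adjusted p = 0.615), and R47H minus KO changed sign without KO mouse 2 (-0.09) or R47H mouse 3 (-0.07). R47H minus CV was -0.27 without R47H mouse 2 and -0.33 without CV mouse 3.

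The window before the Il1b start holds the letters of a TATA box, a sequence that can place transcription initiation, and is shown because Il1b had the largest difference in CV minus KO of the 10 genes. The RefSeq sequence of the 250 bases before the start (GRCm38.p6, chr2:129371140-129371389, minus strand) is printed 5′ to 3′ with the letters TATAAA in capitals, which begin 31 bases before the start.
Il1b: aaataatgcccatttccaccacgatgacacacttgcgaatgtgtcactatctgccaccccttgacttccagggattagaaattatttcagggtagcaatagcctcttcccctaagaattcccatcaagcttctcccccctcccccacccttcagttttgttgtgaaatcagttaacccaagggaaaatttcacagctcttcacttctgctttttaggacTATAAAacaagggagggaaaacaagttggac
TATAAA was found on either strand in this window of 4 of the 10 genes (Il1a, Il1b, Il18 and Tnf), and in 14.3% of the 27025 genes with a RefSeq window.

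Il1a, the interleukin-1 form that is active without caspase-1, moved over a narrower range. It read 11.56, 11.30 and 11.66 in KO mice, 11.48, 11.53 and 11.69 in R47H mice, and 11.63, 11.68 and 11.95 in CV mice. The groups overlapped in all 3 comparisons. CV minus KO was 0.25 ± 0.12 (limma adjusted p = 0.424), R47H minus KO 0.06 ± 0.12, and R47H minus CV -0.19 ± 0.12. Leaving out KO mouse 2, the lowest, gave 0.12 in CV minus KO, and R47H minus KO changed sign (-0.06). Without CV mouse 3 CV minus KO was 0.16 and R47H minus CV -0.09.

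Il1rn encodes the receptor antagonist that blocks both interleukin-1 ligands. Its levels were 6.74, 6.27 and 6.52 in KO mice, 6.60, 6.10 and 6.60 in R47H mice, and 6.89, 6.65 and 6.82 in CV mice. As for Il1b, mouse 2 was lowest in each genotype. All R47H mice lay below all CV mice, by 0.05 at the closest pair (R47H minus CV, -0.35 ± 0.13, 95% interval -0.65 to -0.06, limma adjusted p = 0.32). CV minus KO was 0.28 ± 0.13 (limma adjusted p = 0.42) and R47H minus KO -0.08 ± 0.13. Without R47H mouse 2 R47H minus CV was -0.22 and R47H minus KO changed sign to 0.06, and the latter was -0.21 without R47H mouse 3.

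Il18, the other cytokine that caspase-1 activates, was more widely spread among the R47H mice (SD 0.31) than among KO or CV mice (SD 0.10 in each). It read 7.75, 7.69 and 7.87 in KO mice, 7.55, 7.99 and 8.15 in R47H mice, and 7.52, 7.65 and 7.70 in CV mice. The R47H males lay above every other mouse and the R47H female lay among the lowest values. R47H minus CV was 0.27 ± 0.11 (95% interval 0.02 to 0.53, limma adjusted p = 0.372), CV minus KO -0.15 ± 0.11 and R47H minus KO 0.13 ± 0.11. Without R47H mouse 1 R47H minus CV was 0.42, and without R47H mouse 3 it was 0.18. The same removals took R47H minus KO to 0.27 and 0.03. Leaving out KO mouse 1 gave -0.04 in CV minus KO, and KO mouse 2 gave -0.24.

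Nlrp3, the inflammasome sensor, held nearly the same level in the 3 CV mice. It read 9.78, 9.43 and 9.78 in KO mice, 9.39, 9.78 and 9.66 in R47H mice, and 10.04, 9.97 and 9.96 in CV mice. The lowest CV mouse stood 0.18 above the highest KO mouse and 0.19 above the highest R47H mouse. Against KO, CV stood higher by 0.33 ± 0.13, a 1.25-fold higher level (95% interval 0.04 to 0.61, limma adjusted p = 0.306), and R47H minus CV was -0.38 ± 0.13 (95% interval -0.67 to -0.10, adjusted p = 0.274). R47H minus KO was -0.06 ± 0.13 (limma adjusted p = 0.982) and changed sign without KO mouse 1 or R47H mouse 1. CV minus KO was 0.20 without KO mouse 2, and R47H minus CV -0.23 without R47H mouse 1.

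Casp1, the protease of the inflammasome, lay at 7.55, 7.30 and 7.46 in KO mice, 7.56, 7.45 and 7.55 in R47H mice, and 7.54, 7.65 and 8.05 in CV mice. CV mouse 3 stood above all other mice and CV mouse 1 lay within the KO range. The difference CV minus KO of 0.31 ± 0.13 (limma adjusted p = 0.37) was 0.14 without CV mouse 3. R47H minus KO was 0.08 ± 0.13 and R47H minus CV -0.22 ± 0.13, the latter -0.06 without CV mouse 3. Leaving out KO mouse 2 gave 0.0029 in R47H minus KO, and leaving out KO mouse 1 gave 0.18.

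Tnf, a cytokine made by microglia early after stimulation, lay at 11.13, 11.28 and 11.35 in KO mice, 11.14, 11.49 and 11.64 in R47H mice, and 11.58, 11.49 and 11.59 in CV mice. The CV mice lay wholly above the KO mice, by 0.15 at the closest pair, and the R47H mice spanned from the KO range to just above the CV range. CV minus KO was 0.31 ± 0.10, a 1.24-fold higher level (95% interval 0.07 to 0.54, limma adjusted p = 0.25). R47H minus KO was 0.17 ± 0.10 (limma adjusted p = 0.923) and R47H minus CV -0.14 ± 0.10 (adjusted p = 0.642). Without CV mouse 1 CV minus KO was 0.19 and R47H minus CV -0.02. The R47H values rested on single mice too: without R47H mouse 1 R47H minus KO was 0.29 and R47H minus CV -0.02, and without R47H mouse 3 they were 0.09 and -0.22.

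Il6, a cytokine that acts through the Il6st receptor chain, had its highest mean in KO. It read 7.34, 6.56 and 7.02 in KO mice, 6.53, 6.56 and 6.70 in R47H mice, and 5.83, 6.97 and 6.67 in CV mice. The groups overlapped, and the CV female alone lay below 6. Its SD about the model, 0.44, exceeded that of 99.0% of tested genes. Its difference CV minus KO was -0.49 ± 0.28 (95% interval -1.12 to 0.14, limma adjusted p = 0.507), -0.08 without CV mouse 1 and -0.12 without KO mouse 1. R47H minus KO was -0.38 ± 0.28 and -0.014 without KO mouse 1. R47H minus CV was 0.11 ± 0.28 and changed sign to -0.29 without CV mouse 1.

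Ptgs2 encodes the inducible cyclooxygenase that begins prostaglandin synthesis, and had the smallest p of the 10 genes in both comparisons with KO. It read 9.20, 8.40 and 9.05 in KO mice, 9.49, 9.21 and 9.47 in R47H mice, and 9.66, 9.48 and 9.39 in CV mice. All CV mice and all R47H mice lay above all KO mice, the R47H mice by 0.015 at the closest pair. The level in CV exceeded that in KO by 0.62 ± 0.16, a 1.54-fold higher level (95% interval 0.26 to 0.99, limma adjusted p = 0.124), and R47H minus KO was 0.51 ± 0.16, a 1.42-fold higher level (95% interval 0.15 to 0.87, adjusted p = 0.601). R47H minus CV was -0.12 ± 0.16 (95% interval -0.48 to 0.24, limma adjusted p = 0.828), and its sign turned with the neutrophil or immediate early scores described further on. Without KO mouse 2, the lowest of all mice, CV minus KO was 0.41 and R47H minus KO 0.30 (limma adjusted p = 0.146 for the former).

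Nfkbia, the inhibitor that NF-kB itself induces, stayed within a narrow range. It lay at 11.72, 11.69 and 11.63 in KO mice, 11.58, 11.92 and 11.87 in R47H mice, and 11.66, 11.59 and 11.68 in CV mice. The R47H males were highest and the R47H female lowest of all 9 mice. For CV minus KO the difference was -0.04 ± 0.09 (95% interval -0.25 to 0.17, limma adjusted p = 0.902), and its sign changed in 3 alternatives. R47H minus KO was 0.11 ± 0.09 and R47H minus CV 0.14 ± 0.09. Without R47H mouse 1 these were 0.23 and 0.26, and without R47H mouse 2 they were 0.05 and 0.09.

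By the order of the group means, R47H lay between KO and CV for 6 genes (Il1a, Il1b, Tnf, Ptgs2, Casp1 and Il6), below both for Il1rn and Nlrp3, and above both for Il18 and Nfkbia. No neighbours in these orders differed by a called amount. Between R47H and KO the means of Il1a, Il1b, Il1rn, Nlrp3, Casp1 and Nfkbia differed by at most 0.12 on the log2 scale. For the others R47H minus KO was 0.13 (Il18), 0.17 (Tnf), -0.38 (Il6) and 0.51 (Ptgs2).

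Genes of the same pathways were described from 7 lists with 119 genes beside the 10, of which 106 had a probe set of their own and 87 were tested. In CV minus KO 1 of the 87 was called (1.15%, higher), close to the 1.21% of all tested genes, and in R47H minus CV 1 was called (1.15%, lower) against 0.797%, so neither count sets the lists apart. In R47H minus KO 0 were called (limma). An unadjusted p under 0.05 was reached by 22 in CV minus KO (25.3% against 13.2% of all genes, 15 higher and 7 lower), by 4 in R47H minus KO (4.6% against 5.68%) and by 17 in R47H minus CV (19.5% against 12.4%, 4 higher and 13 lower). The median difference of the 87 was 0.07 in CV minus KO, 0.0045 in R47H minus KO and -0.03 in R47H minus CV. These lists too were chosen with earlier results of these data known, so their shares are a description.

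The called gene was the same in both comparisons, which share the CV arrays. It was Tnip1, whose protein binds ubiquitin and the enzyme A20 (Tnfaip3) and restrains NF-kB activation. Tnip1 (probe set 10385941) lay at 6.70, 6.78 and 6.72 in KO mice, 6.95, 6.83 and 6.74 in R47H mice, and 7.32, 7.27 and 7.25 in CV mice. The CV mice lay above all others, and the SD within KO and within CV was 0.04. It rose with the common variant by 0.55 ± 0.07 on the log2 scale, 1.46-fold (95% interval 0.39 to 0.71, limma adjusted p = 0.00759). With R47H it was lower than with the common variant (-0.44 ± 0.07, limma adjusted p = 0.0346) and stood 0.11 ± 0.07 from KO (adjusted p = 0.933). Over all alternatives CV minus KO ran from 0.49 to 0.58 and R47H minus CV from -0.49 to -0.40. The CV minus KO call was lost without CV mouse 1 (0.55, limma adjusted p = 0.0527) and with either score as a covariate (0.56, adjusted p = 0.118 with the neutrophil score, and 0.58, adjusted p = 0.0806 with the immediate early score). The R47H minus CV call was lost without any of CV mice 1, 2 and 3 (limma adjusted p = 0.169, 0.123 and 0.145; differences -0.44, -0.44 and -0.44) or R47H mice 1, 2 and 3 (adjusted p = 0.111, 0.111 and 0.15; differences -0.49, -0.45 and -0.40). It was also lost with the neutrophil score (-0.45, limma adjusted p = 0.421), the immediate early score (-0.46, adjusted p = 0.152), the compared groups alone (adjusted p = 0.0525) or no filter on the mean (adjusted p = 0.0559).

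The other NF-kB inhibitors and feedback genes were 13 tested genes with no call. Counting Tnip1, CV exceeded KO in 12 of 14 (median 0.18) and 0 of 14 were higher in R47H than in CV (median -0.17), beside 45.0% and 53.4% of all tested genes. Both counts rest on the same CV arrays. In R47H minus KO 9 of 14 were higher (median 0.03). By unadjusted p under 0.05 (limma) the counts were 3 of 14 in CV minus KO (21.4%), 0 in R47H minus KO and 2 in R47H minus CV (14.3%). The shares of all genes were 13.2%, 5.68% and 12.4%. Nfkbie, an inhibitor related to Nfkbia, stood at 0.36 ± 0.12 in CV minus KO (limma adjusted p = 0.256) and -0.36 in R47H minus CV. Nfkbiz, a nuclear co-activator for Il6 and related genes, stood at 0.26 ± 0.08 (limma adjusted p = 0.216), and Irak3, a brake on Toll-like receptor signalling, at 0.28 ± 0.14 (adjusted p = 0.428).

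The windows before the starts of Nfkbia and Tnip1 are shown because these inhibitors, both regulators of NF-kB, gave the smallest difference of the 10 genes in CV minus KO and the called one of the pathway lists. Letters that match GGGNNNNNCC, a loose form of the NF-kB binding sequence, on either strand are in capitals in the 250 bases before each start (RefSeq, GRCm38.p6, 5′ to 3′, Nfkbia at chr12:55492648-55492897 and Tnip1 at chr11:54962941-54963190, both minus strand).
Nfkbia: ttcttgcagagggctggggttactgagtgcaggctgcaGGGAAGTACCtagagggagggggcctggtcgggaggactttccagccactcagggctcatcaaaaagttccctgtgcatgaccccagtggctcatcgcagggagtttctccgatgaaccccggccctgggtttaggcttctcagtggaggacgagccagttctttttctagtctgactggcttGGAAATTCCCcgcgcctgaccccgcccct
Tnip1: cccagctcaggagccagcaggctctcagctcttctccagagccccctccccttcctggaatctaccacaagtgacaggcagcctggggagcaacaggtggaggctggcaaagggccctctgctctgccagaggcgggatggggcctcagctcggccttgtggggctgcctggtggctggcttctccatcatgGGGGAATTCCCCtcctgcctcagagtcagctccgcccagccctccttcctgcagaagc
Nfkbia held 2 matches, 1 on each strand, and Tnip1 4 that overlap each other, since the letters in capitals there read the same on both strands. A match was found for 7 of the 10 genes (Il1rn, Il6, Tnf, Ptgs2, Nlrp3, Casp1 and Nfkbia) and for 48.7% of the 27025 genes with a window, so the share among the 10 is described only. None of these matches overlapped a TATAAA match.

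Of the NF-kB subunits and kinases 12 were tested and 0 called in any comparison (limma), with 5 at an unadjusted p under 0.05 in CV minus KO, all higher, 0 in R47H minus KO and 3 in R47H minus CV, all lower. Over all genes 13.2%, 5.68% and 12.4% reached that p in either direction. Rel, a subunit abundant in immune cells, stood at 0.33 ± 0.13 in CV minus KO (limma adjusted p = 0.337), and Relb and Nfkb2, partners in the non-canonical pathway, at 0.33 ± 0.11 (adjusted p = 0.247) and 0.27 ± 0.11 (adjusted p = 0.352). Map3k14, the kinase that starts the non-canonical pathway, stood at 0.28 ± 0.08 (limma adjusted p = 0.196). In R47H minus KO these genes lay between -0.04 (Map3k14) and 0.03 (Relb).

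**Figure D3:**
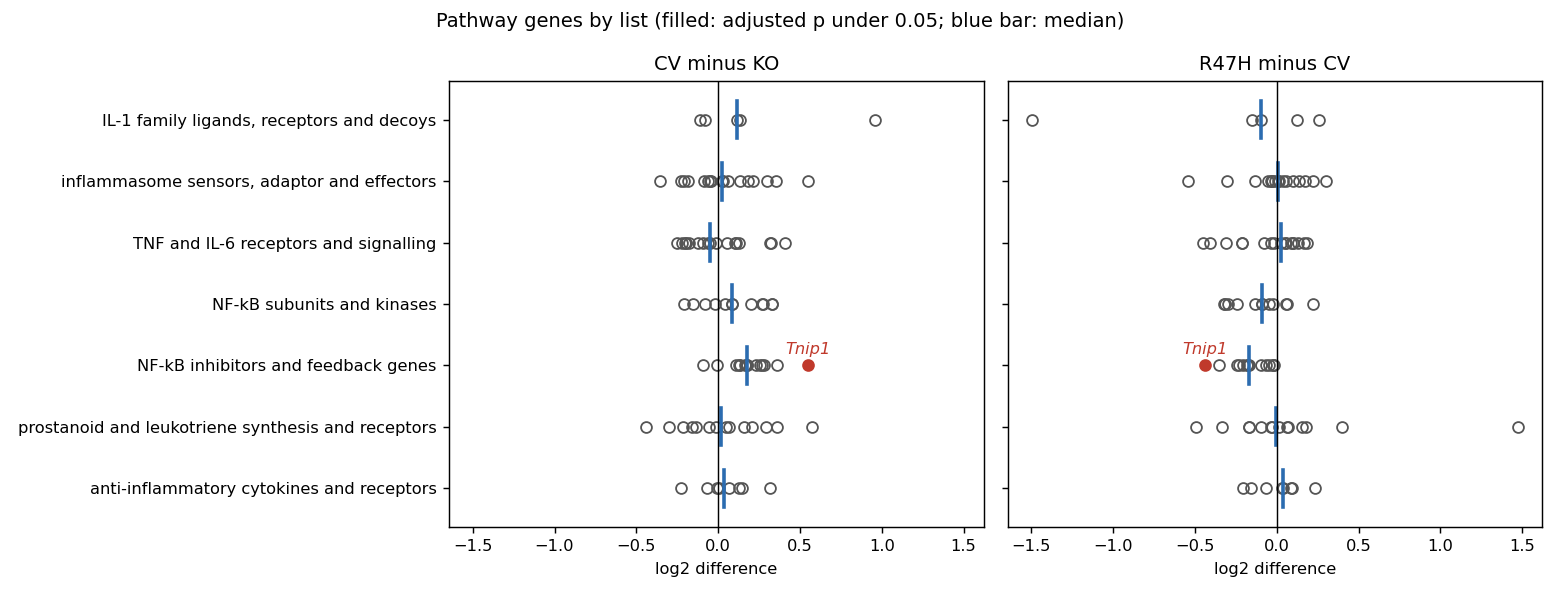
Log2 difference of each tested pathway gene by list for CV minus KO (left) and R47H minus CV (right), with filled red points for an adjusted p under 0.05 and blue bars for list medians. Tnip1 was the called gene on both sides, at 0.55 and -0.44. All 14 feedback genes lay below 0 in R47H minus CV, 2 of them at an unadjusted p under 0.05 (limma). Both sides use the same CV mice.

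Inflammasome genes beside Nlrp3 and Casp1 were 17 tested genes with 0 calls in any comparison (limma), of which 2 in CV minus KO, 1 in R47H minus KO and 2 in R47H minus CV had an unadjusted p under 0.05. These are 11.8%, 5.88% and 11.8%, near the 13.2%, 5.68% and 12.4% of all genes. Casp4, the caspase that senses intracellular lipopolysaccharide, was at 9.03, 8.64 and 9.14 in KO mice, between 8.73 and 9.10 in R47H mice and 9.17, 9.36 and 9.93 in CV mice. The CV mice lay above all others (CV minus KO 0.55 ± 0.19, limma adjusted p = 0.26). Txnip, a redox protein that can bind NLRP3, stood at -0.35 ± 0.13 in CV minus KO (limma adjusted p = 0.268) and -0.34 in R47H minus KO, Panx1, an ATP release channel, at -0.23 ± 0.10 in CV minus KO, and the sensor Nlrp1b at 0.30 ± 0.13. The median of the list was 0.02 in CV minus KO.

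Among receptors and regulators of interleukin-1 and interleukin-18, 13 of 20 listed genes had a probe set and 5 were tested, with 0 called (limma) and 1 at an unadjusted p under 0.05 in CV minus KO, 2 in R47H minus KO and 1 in R47H minus CV. The shares of all genes at that p were 13.2%, 5.68% and 12.4%. Il1r2, a decoy receptor that traps interleukin-1 and is abundant in neutrophils, lay at 5.94, 4.88 and 6.94 in KO mice, 5.09, 5.59 and 5.46 in R47H mice, and 6.73, 7.03 and 6.87 in CV mice. All R47H mice lay below all CV mice (0.355-fold, limma adjusted p = 0.199), and CV minus KO was 0.96 ± 0.41 (adjusted p = 0.37). R47H minus CV was called with the compared groups alone, without KO mouse 2 or without KO mouse 3 (limma adjusted p = 0.00292, 0.00783 and 0.0441). Il18bp, which neutralises interleukin-18, stood at 0.14 ± 0.08 in CV minus KO and 0.26 ± 0.08 in R47H minus KO, where all R47H mice lay above all KO mice (limma adjusted p = 0.656). Its deposited value was 7.15 in KO mouse 2 and in all CV mice. Il1rl2, the interleukin-36 receptor, stood at 0.12 ± 0.08 and Sigirr, an inhibitory receptor, at -0.11 ± 0.08 in CV minus KO, and Sigirr at -0.21 ± 0.08 in R47H minus KO.

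Receptors and signalling genes of TNF and interleukin-6 were 17 tested genes with 0 calls in any comparison (limma), of which 5 in CV minus KO had an unadjusted p under 0.05, 2 higher and 3 lower, 0 in R47H minus KO and 3 in R47H minus CV. Among all genes the shares were 13.2%, 5.68% and 12.4%. Rhbdf2, which escorts the protease that sheds TNF, stood at 0.41 ± 0.13 in CV minus KO (limma adjusted p = 0.216), and Birc3, an NF-kB target that limits cell death, at 0.32 ± 0.12 (adjusted p = 0.277). The kinase Jak1 stood at -0.20 ± 0.08 and Socs3, the feedback inhibitor of interleukin-6 signalling, at -0.22 ± 0.09 (limma adjusted p = 0.303 and 0.307).

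Of prostanoid and leukotriene genes 14 were tested and 0 called in any comparison (limma), with 4 at an unadjusted p under 0.05 in CV minus KO, 1 in R47H minus KO and 4 in R47H minus CV. Over all genes 13.2%, 5.68% and 12.4% did so. Ptgds, named after its value was seen, had the largest difference of the list in R47H minus KO (1.26) and in R47H minus CV (1.47). The lowest in R47H minus CV was Alox5 (-0.49). Ltc4s, which makes leukotriene C4, lay at 10.70, 10.78 and 10.79 in KO mice, 10.73, 10.59 and 10.82 in R47H mice, and 10.29, 10.45 and 10.20 in CV mice. All CV mice lay below the others (CV minus KO -0.44 ± 0.09, limma adjusted p = 0.0649), a difference called with quantile normalization or with the trend and robust options (adjusted p = 0.0486 and 0.0391). Alox5ap, which hands the substrate to the first leukotriene enzyme, stood at -0.30 ± 0.08 (limma adjusted p = 0.158). Ptger4, a prostaglandin E2 receptor, stood at 0.57 ± 0.12 in CV minus KO (limma adjusted p = 0.0718) with overlapping groups, and Ptges3, a prostaglandin E synthase, at 0.36 ± 0.14, which was 0.55 and called without KO mouse 3 (adjusted p = 0.0208). Of the anti-inflammatory genes 8 were tested and 0 called (limma), with 2 at an unadjusted p under 0.05 in CV minus KO, Il10ra, a chain of the interleukin-10 receptor, at 0.32 ± 0.09 and Tgfb1 at -0.23 ± 0.08 (adjusted p = 0.179 and 0.279). Ebi3 stood at 0.15 ± 0.14 and Il10rb at 0.13 ± 0.12.

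Markers of other cells differed between genotypes in the same mice, and their part in the results was not tested. None of the 11 tested of 15 neutrophil markers was called (limma), and 10 had an unadjusted p under 0.05 in CV minus KO, all higher, 0 in R47H minus KO and 10 in R47H minus CV, all lower. Over all genes 13.2%, 5.68% and 12.4% reached that p in either direction. The 11 markers had a mean deviation from their average over all mice, the neutrophil score, of -1.98, -1.50 and 1.63 in KO mice, -1.28, -0.70 and -0.12 in R47H mice, and 0.77, 1.67 and 1.50 in CV mice. KO mouse 3 lay near the CV mice, and CV lay above R47H throughout. S100a8 and S100a9, abundant neutrophil proteins, stood at 2.63 ± 0.80 and 2.55 ± 0.81 in CV minus KO (limma adjusted p = 0.208 and 0.225), and Retnlg at 2.03 ± 0.77, while Csf3r stood at 0.02 ± 0.14. The neutrophil markers Cxcr2, Elane, Mpo and Ly6g lay below the filter in the average over mice. Of 7 tested monocyte markers all were higher in CV than in KO, S100a6 by 1.56 ± 0.58, S100a4 by 0.70 ± 0.29, Ms4a4c by 0.61 ± 0.24 and Plac8 by 0.12 ± 0.14. Fn1, named after its value was seen, was the 1 called monocyte marker, higher in CV than in KO by 2.20 ± 0.15 (limma adjusted p = 0.000512). It was also called in R47H minus CV (-2.35 ± 0.15, limma adjusted p = 0.000492). Monocyte scores were -0.64, -0.77 and 0.55 in KO mice, -0.59, -0.63 and -0.32 in R47H mice, and 0.63, 1.08 and 0.70 in CV mice. For Fn1, unlike the score, KO mouse 3 lay near the other KO mice. Fn1 read 5.08, 4.85 and 5.24 in KO mice and 7.65, 7.17 and 6.96 in CV mice. Oligodendrocyte markers, in contrast, lay highest in R47H mice (scores 0.55 to 0.92, against -0.68 to 0.14 in KO and -0.67 to -0.33 in CV), with 1 of 7 called in R47H minus KO and 5 of 7 in R47H minus CV (limma), all higher. Of all genes 1.21% were called in CV minus KO, 0.0834% in R47H minus KO and 0.797% in R47H minus CV. Among the other lists, named after their values were seen, the called markers were Ms4a7 (border macrophages, CV minus KO 0.82 ± 0.15), Cd79b (B cells, CV minus KO -0.65 ± 0.11) and Flt1 (endothelium, CV minus KO 1.55 ± 0.17), with limma adjusted p of 0.0423, 0.0269 and 0.00413. In R47H minus CV they were Cd163 (border macrophages, 0.56 ± 0.08) and S100b (astrocytes, 2.12 ± 0.26), with limma adjusted p of 0.0235 and 0.0127, and 3 of 4 tested astrocyte markers were higher in R47H than in KO at an unadjusted p under 0.05. These single markers need not stand for their lists. Of 8 border macrophage markers, Ms4a7 was the 1 higher in CV than in KO. The median of that list was -0.33, with 4 lower at an unadjusted p under 0.05 (limma). The other tested endothelial marker, Pecam1, stood at -0.56 ± 0.16 in CV minus KO. Of 6 endothelial markers on the array 2 were tested, and the rest lay below the filter. Cd79b was the 1 tested of 5 B cell markers on the array. The rest lay below the filter, with mean levels from 2.74 (Ms4a1) to 4.55 (Pax5). Microglial markers were abundant in every mouse (median log2 level 11.7) and all 9 were lower in CV than in KO, with a median of -0.19, 6 at an unadjusted p under 0.05 and 0 called (limma). Their scores ran from -0.13 to -0.08 in CV mice and from 0.04 to 0.16 in KO mice. In sorted cells measured in bulk, fewer cells of a type and less RNA per cell cannot be told apart.

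With the neutrophil score as a covariate CV minus KO was 0.22 ± 0.31 for Il1b against 0.64 without it, 0.30 ± 0.17 against 0.62 for Ptgs2, 0.09 against 0.25 for Il1a, 0.12 against 0.28 for Il1rn and 0.21 against 0.33 for Nlrp3. It was 0.26 against 0.31 for Tnf and 0.28 against 0.31 for Casp1, and -0.55 against -0.49 for Il6. In R47H minus CV the same covariate gave -0.08 against -0.51 for Il1b, -0.20 against -0.35 for Il1rn and -0.26 against -0.38 for Nlrp3, and 0.22 against -0.12 for Ptgs2. R47H minus KO for Ptgs2 was 0.52 with it and 0.51 without it. For Il18 the covariate gave -0.21 against -0.15 in CV minus KO. Every CV mouse had a higher neutrophil score than every R47H mouse and than KO mice 1 and 2. Score and genotype therefore cannot be told apart well, and the part of neutrophils in these differences was not tested.

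Sorting after enzymatic dissociation can itself induce cytokine transcripts in microglia. Immediate early genes were scored for this reason, but the score cannot tell induction by sorting from differences between the genotypes. The immediate early scores lay at -0.20, -0.12 and 0.13 in KO mice, -0.19, 0.07 and 0.05 in R47H mice, and 0.02, 0.12 and 0.12 in CV mice. Of the 18 tested genes 0 were called in any comparison (limma). An unadjusted p under 0.05 was reached by 4 in CV minus KO, 1 in R47H minus KO and 1 in R47H minus CV. Over all genes the shares were 13.2%, 5.68% and 12.4%. In CV minus KO 16 of the 18 were positive (median 0.14), and all 4 with an unadjusted p under 0.05 were higher. Egr2 at 0.67 ± 0.15 (limma adjusted p = 0.0887) and Junb at 0.27 ± 0.08 (adjusted p = 0.19), named after their values were seen, lay wholly above KO in the CV mice. Of the most abundant, Atf3, Jun, Egr1 and Fos stood at 0.04, 0.13, 0.20 and 0.03 in CV minus KO. The part of sorting in the results was not tested, and a covariate does not test it. With the immediate early score as a covariate CV minus KO was 0.41 for Il1b, 0.33 for Ptgs2, 0.19 for Tnf, 0.11 for Nlrp3 and 0.32 for Casp1, and -0.28 for Il18. In R47H minus CV it gave 0.10 for Ptgs2.

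**Figure D4:**
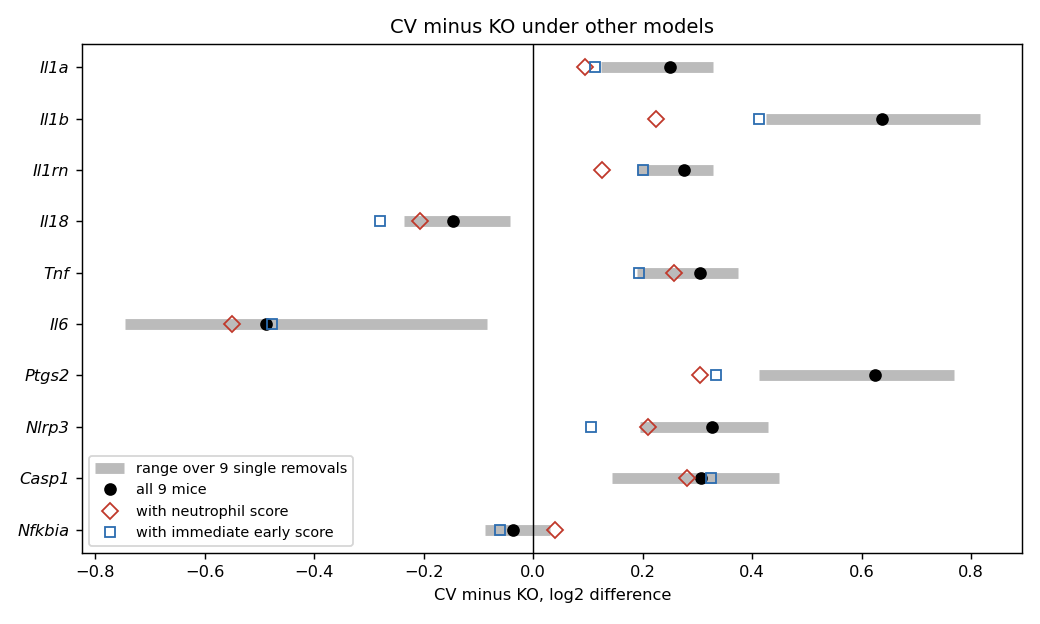
CV minus KO on the log2 scale for each gene with all mice (black), with the neutrophil score (red diamonds) or the immediate early score (blue squares) as a covariate, and over the removal of each of the 9 mice in turn (grey bars). Il1b went from 0.64 to 0.22 with the neutrophil score and Casp1 from 0.31 to 0.28.

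For mouse Trem2 the mean log2 level was 7.16 with KO, 7.28 with R47H and 7.15 with CV, and for Tyrobp, which encodes its adaptor, 12.65, 12.73 and 12.72. It is not known here which part of the mouse gene was removed or whether the Trem2 probes see the human transgene, so these values check no label.

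The genes most like Il1b over the 9 mice, by Pearson's r among the 10795 tested, were Cdk9 (r = 0.968, Spearman's rho = 0.853), 9430038I01Rik (0.954 and 0.833), Dmxl2 (0.953 and 0.895), Il1rn (0.944 and 0.812) and Guca1a (0.943 and 0.983). Without KO mouse 2 and R47H mouse 2, the mice farthest from the median of Il1b, their r were 0.929, 0.829, 0.926, 0.824 and 0.844. Those most like Casp1 were Cep83 (r = 0.977, rho = 0.731), Rmi1 (0.976 and 0.747), Fbxl5 (0.964 and 0.885), Fyb (0.963 and 0.895) and Taf9 (0.963 and 0.820). Without CV mouse 3 and KO mouse 2, the farthest from the median of Casp1, their r lay between 0.641 and 0.793. These genes were picked as the highest among all tested, over mice that share genotypes, and are given as a description.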

How the data were processed

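The authors deposited 1 log2 value per probe set and array (1.31 to 13.9, array medians 5.28 to 5.35), which were used unchanged; the sources used here do not name their background correction, normalization or summarisation. Some values recur exactly in several mice: Il1rn in R47H mice 1 and 3, Nlrp3 in KO mouse 3 and R47H mouse 2, Casp1 in KO mouse 1 and R47H mouse 3. All KO mice had the same value of Cd163 (6.49). The reason is not known here, and such ties can lower SDs and SEs. RNA input was 2 ng per mouse, per the labels' protocols. Of 35556 probe sets the platform annotation gave 1 symbol to 21789, several to 1621 and none to 12146. The probe set with the highest mean stood for a gene, and genes whose mean reached the median over probe sets (5.31) were tested. Cross-hybridisation was not checked.

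Genotype and sex were fitted to all 9 arrays with limma 3.58.1 in R 4.3.3 (lmFit, eBayes, two-sided), with Benjamini-Hochberg adjustment over 10795 genes. The ± after a difference is the limma SE. On simulated data (CV minus KO, 10795 genes) 62% of genes changed by 0.5 and 84% of those changed by 1 were recovered, with 13 of 186 calls false. The simulation changed 50 random genes by each of 0.5, 1, 2 and 3 log2 units, with noise independent between mice. Il1b and Il6 had larger SDs about the model than 98.7% and 99.0% of tested genes, and Ptgs2 than 93.4%. Of the 10 genes only Nfkbia had an SD below the median of tested genes. The shares recovered are averages over random genes and therefore do not hold for the 10 genes. Differences smaller than 0.5 were not simulated. An exact permutation test of 3 mice against 3 has a smallest p of 0.1. The number of arrays limits the precision. The members and lists were chosen with earlier results of these data known. Scores are means over a list's tested genes of each gene's deviation from its average over mice. The text names the 10 genes, Trem2 and Tyrobp, up to 4 genes of each pathway list by smallest p in CV minus KO and any called, the 4 most abundant neutrophil, monocyte and immediate early genes, and the 5 genes most like Il1b and Casp1. Alternatives were models without sex, with a replicate block, with a score or with the compared groups only, other filters, probe set rules, scalings and eBayes options, and leaving out each mouse.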

Additional observations from a re-analysis of the deposited data

How the results depend on the processing

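Of the 600 values of the 10 genes under alternatives, 12 changed sign, all of differences that were not called, and 1 was called. That 1 was Il1b in CV minus KO with the replicate block (0.64 ± 0.10, limma adjusted p = 0.0276, range over all its alternatives 0.0276 to 0.9995), where 1 of the 10 genes was called against 0 without it. The block takes out that mouse 2 was lowest in every genotype, but the labels do not pair the mice, and the block was not used as the main model because not every same-numbered pair correlated above 0.1 in its deviations from the group means. In 7 of 9 same-numbered pairs (range -0.04 to 0.36) against 3 of 18 others (-0.39 to 0.21) the correlation was above 0.1, and 5 of 9 mice correlated best with a mouse of their own number. This is a hint of shared structure from the data, and number 1 also marks the females. It moved the genes called to 136, 11 and 83 in CV minus KO, R47H minus KO and R47H minus CV (131, 9 and 86 without it).

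Genes called in CV minus KO numbered 54 with the compared groups only, 77 without sex, 22 with the neutrophil score and 36 with the immediate early score. In R47H minus KO they numbered 1, 3, 15 and 25 in the same order, and 15 with trend and robust options. In R47H minus CV they numbered 9 with the neutrophil score, 31 with the immediate early score and 48 without the filter. Over single removals the counts ran from 59 to 172, from 0 (without R47H mouse 3, with 534 at an unadjusted p under 0.05, limma) to 7, and from 9 to 132. The pathway genes called in CV minus KO (1) numbered 2 with quantile normalization or trend and robust options, 0 with the neutrophil or immediate early score (9 and 12 at an unadjusted p under 0.05, limma), and 0 to 2 over single removals. In R47H minus CV (1) they numbered 0 with the neutrophil score, the immediate early score or no filter (8, 12 and 20 at an unadjusted p under 0.05, limma), and 0 to 2 over single removals. The cause of these changes was not tested, apart from the added term or the samples and genes left out. Each member had 1 probe set, so the probe set rule could not move its difference. With 3 mice a group the SEs of Il1b and Il6, 0.25 and 0.28, limit what could be detected for these genes.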
